A study of Homo sapiens with 12 samples.

Results

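Small nucleolar RNAs guide chemical changes on other RNAs and take part in the maturation of ribosomal RNA in the nucleolus. The box C/D class (gene symbols SNORD) works with the methyltransferase fibrillarin, and the box H/ACA class (SNORA) works with the pseudouridine synthase dyskerin. Small Cajal body RNAs (SCARNA) share these boxes and proteins, and guide the modification of spliceosomal small nuclear RNAs in the Cajal body. Most of these RNAs in human cells are cut from introns of host genes, while a few, such as the U3 genes (SNORD3) and SCARNA2, have transcription units of their own.

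The entries described here, measured in the established bladder cancer cell line T24, were all genes with a symbol starting with SNORA, SNORD or SCARNA and a mean of at least 1 TPM over the 4 libraries whose library ID starts with R18051. TPM is Stringtie's measure of transcript abundance per length, with an equal total for every library. The rule chose 199 of the 850 genes with such symbols among the 60504 genes listed. They were 92 of 424 SNORA, 89 of 370 SNORD and 18 of 56 SCARNA genes. The levels in the R18051 libraries chose the entries and are given here as a description without a test. Just inside the threshold lay SNORA2 (ENSG00000206647) and SNORD62A, both at 1.01 TPM, and just outside lay SCARNA15 at 0.985 TPM and SCARNA23 at 0.972 TPM. Of the 199, 198 were found in GENCODE release 44 with the same coordinates, 23 of them under another symbol. A symbol shared with another entry was carried by 30 of them, so each was followed by its identifier.

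The R18051 libraries were 2 untreated T24 controls (T1 and T2) and 2 libraries labelled U11 knockout (U1 and U2). The other 8 libraries were 2 untreated T24 controls (T24P3 and T24-4) and 6 labelled U11 overexpression, with 2 from each of the line labels 79, 86 and 87. According to the methods, knockout cells came from monoclonal lines obtained with a pair of Cas9 guides and puromycin selection, and overexpression cells carried the U11 sequence in the plasmid pcDNA3. What the line labels stand for, and how many clones lie behind the knockout libraries, is not given in the sources used here. The labels call the RNA polyA RNA and name the TruSeq kit, whereas the methods describe removal of ribosomal RNA. U11, the small nuclear RNA that was targeted, summed over its 2 entries to 21.4 TPM in T1, 23.8 TPM in T2, 31.6 TPM in U1 and 37.4 TPM in U2. Its level in these libraries therefore went against the knockout label, and U1 and U2 are called libraries labelled U11 knockout throughout. By real-time quantitative PCR, the paper reports significantly less U11 in the knockout line than in wild-type T24. It reports significantly more in the overexpression line. In the other set U11 was measured at 0.0334 TPM in T24P3 and 0.623 TPM in T24-4, at 0.183 and 0.412 TPM in line 79, at 3.98 and 3.72 TPM in line 86 and at 61.9 and 53.6 TPM in line 87. The level in line 79 lay within the range of the controls.

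The libraries held between 9.07 and 15.3 gigabases of aligned sequence, with 13.7 to 15.2 in the R18051 set. The bladder epithelial markers KRT7, KRT8, KRT18, KRT19, GATA3, PPARG and FOXA1 were above 1 TPM in each library, while KRT5 and the uroplakins UPK1A, UPK1B, UPK2 and UPK3A stayed below 1 TPM. Of 8 markers of immune, endothelial and muscle cells, 6 stayed below 1 TPM in each library. The exceptions were CD14, at up to 1.18 TPM, and the endothelial cadherin CDH5, at 0.0293 to 4.85 TPM in the R18051 set and 3.08 to 34.1 TPM in the other 8 libraries. Their part in the results was not tested.

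The class boxes were looked for in the hg38 sequence of each entry on its annotated strand. ACA within the last 8 bases was present in 83 of the 92 SNORA entries (90.2%) and in 69.3% of the SNORA genes below the threshold. CTGA, the letters of box D, lay in the last 15 bases of 78 of the 89 SNORD entries (87.6%) and of 82.2% of the other SNORD genes. TGATGA, the letters of box C in one of its forms, lay in the first 15 bases of 46 SNORD entries (51.7%) and of 60.1% of the others. TGAG, which occurs in the Cajal body box of the H/ACA type, lay anywhere in 16 of 18 SCARNA entries (88.9%), in 41.3% of SNORA and in 84.3% of SNORD entries, so it does not set the SCARNA class apart. A match of so few letters is a description only.

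The sequences of 9 entries that the results below turn on are given 5′ to 3′ as DNA. The first 2 are the neighbouring U17 copies, SNORA73A at chr1:28507366-28507571 and SNORA73B at chr1:28508559-28508762 (plus strand, in SNHG3), the most abundant H/ACA entries. Their sequences were identical at 192 of 206 aligned positions (93.2%). SNORD17 (chr20:17962710-17962946, minus strand, in an intron of SNX5), SCARNA6 (chr2:233288676-233288940, plus strand, in an intron of ATG16L1) and SNORD58B (chr18:49491664-49491729, minus strand, in an annotated exon of RPL17) show the range of lengths and of levels between the 2 sets of libraries. The remaining 4 were called in the knockout comparison and lie in introns. They are SNORA38 (chr6:31623079-31623210, plus strand, PRRC2A), SNORA80B (chr2:10446714-10446849, minus strand, ODC1), SNORA49 (chr12:132031224-132031359, plus strand, EP400) and SNORD104 (chr17:64146083-64146152, plus strand, SNHG25). Capitals mark ACA in the last 8 bases of H/ACA entries and TGAG in SCARNA6, where each was found. In C/D entries they mark TGATGA in the first 15 and CTGA in the last 15 bases, where found. SCARNA6 also holds TGATGA in its first 15 and CTGA in its last 15 bases, which are not marked. This CTGA overlaps its last TGAG.
SNORA73A: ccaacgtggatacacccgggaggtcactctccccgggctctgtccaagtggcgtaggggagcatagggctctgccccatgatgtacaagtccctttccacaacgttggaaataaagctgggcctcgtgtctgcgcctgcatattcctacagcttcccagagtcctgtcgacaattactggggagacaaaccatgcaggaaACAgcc
SNORA73B: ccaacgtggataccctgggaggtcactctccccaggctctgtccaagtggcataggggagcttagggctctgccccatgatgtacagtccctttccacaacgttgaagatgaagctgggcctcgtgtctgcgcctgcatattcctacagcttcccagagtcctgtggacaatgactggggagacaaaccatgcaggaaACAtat
SNORD17: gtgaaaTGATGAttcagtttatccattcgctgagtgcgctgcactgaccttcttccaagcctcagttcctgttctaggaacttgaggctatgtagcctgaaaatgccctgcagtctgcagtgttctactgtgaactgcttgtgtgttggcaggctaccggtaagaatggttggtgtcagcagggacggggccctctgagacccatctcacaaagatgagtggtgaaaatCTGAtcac
SCARNA6: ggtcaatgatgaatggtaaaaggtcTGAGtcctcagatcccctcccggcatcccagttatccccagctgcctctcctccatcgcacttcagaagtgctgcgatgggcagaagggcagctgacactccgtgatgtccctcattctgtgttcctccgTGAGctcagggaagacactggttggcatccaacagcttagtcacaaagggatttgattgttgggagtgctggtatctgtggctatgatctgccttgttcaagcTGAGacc
SNORD58B: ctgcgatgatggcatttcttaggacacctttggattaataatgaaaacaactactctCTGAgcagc
SNORA38: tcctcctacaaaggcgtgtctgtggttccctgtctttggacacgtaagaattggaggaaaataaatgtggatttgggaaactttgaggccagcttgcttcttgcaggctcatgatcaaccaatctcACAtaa
SNORA80B: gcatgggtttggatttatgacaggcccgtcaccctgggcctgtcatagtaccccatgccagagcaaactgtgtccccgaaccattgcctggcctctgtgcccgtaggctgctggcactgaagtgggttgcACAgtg
SNORA49: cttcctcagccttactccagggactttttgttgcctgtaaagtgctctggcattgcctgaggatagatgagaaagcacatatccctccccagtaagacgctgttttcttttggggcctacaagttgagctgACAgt
SNORD104: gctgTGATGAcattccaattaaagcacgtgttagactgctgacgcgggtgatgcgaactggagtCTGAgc

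Together the 199 entries took a few percent of the R18051 libraries. Their summed level was 21482 TPM in T1, 27254 TPM in T2, 25071 TPM in U1 and 26769 TPM in U2, or 2.15% to 2.73% of all TPM. A few entries held most of it. The 5 highest made up between 69.3% and 73.3% of the sum in each library, and 124 of the 199 entries had a mean below 10 TPM. SNORD entries summed to 12083 to 17423 TPM, SNORA entries to 6796 to 7756 TPM and SCARNA entries to 2272 to 2658 TPM. By the median entry the order was another, with 58.4 TPM for SCARNA, 6.92 TPM for SNORA and 3.85 TPM for SNORD.

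SNORD3A, a U3 gene whose RNA is needed for the early cleavages of the ribosomal RNA precursor, was the highest entry. It stood at 7729 TPM in T1, 11888 TPM in T2, 10801 TPM in U1 and 11352 TPM in U2, so T1 was the lowest of the 4. The 6 U3 entries (SNORD3A, SNORD3B-1, SNORD3B-2, SNORD3C and 2 overlapping entries of SNORD3D) were also summed, since how reads were divided between them was not tested. Their sum was 13054 ± 3679 TPM over T1 and T2 and 14252 ± 582 TPM over U1 and U2 (SD, n = 2 each). The values of the groups overlapped, with T1 at 10453 TPM and T2 at 15655 TPM. Without the U3 entries the sum was 11314 ± 403 TPM and 11668 ± 619 TPM.

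Among H/ACA entries the U17 copies led, which have a part in ribosomal RNA processing. SNORA73A was measured at 2935, 3252, 2853 and 3278 TPM and SNORA73B at 2041, 2265, 2022 and 2309 TPM in T1, T2, U1 and U2. Both were lower in T1 and U1 than in T2 and U2, and the groups overlapped. SNORA70, which lies in an annotated exon of RPL10, had a mean of 239.1 TPM and SNORA53, in an intron of SLC25A3, a mean of 122 TPM.

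Among SCARNA entries SCARNA10 was highest, with 2 overlapping entries. The one of 248 bases stood at 968, 902, 1076 and 1028 TPM and the one of 330 bases at 53.1, 51.5, 60.7 and 57.5 TPM in T1, T2, U1 and U2. SCARNA2, a guide for U2 small nuclear RNA with its own transcription unit, was at 302, 289, 323 and 313 TPM in the same order. U1 and U2 were above both controls for all 3 of these entries, by less than the fold threshold used below.

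SNORD118 (U8), needed for the maturation of the large subunit RNAs and also independently transcribed, was at 24.8, 17.3, 22.5 and 26.1 TPM in T1, T2, U1 and U2. SNORD13, the fourth such gene looked for, was not among the 199.

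**Figure D1:**
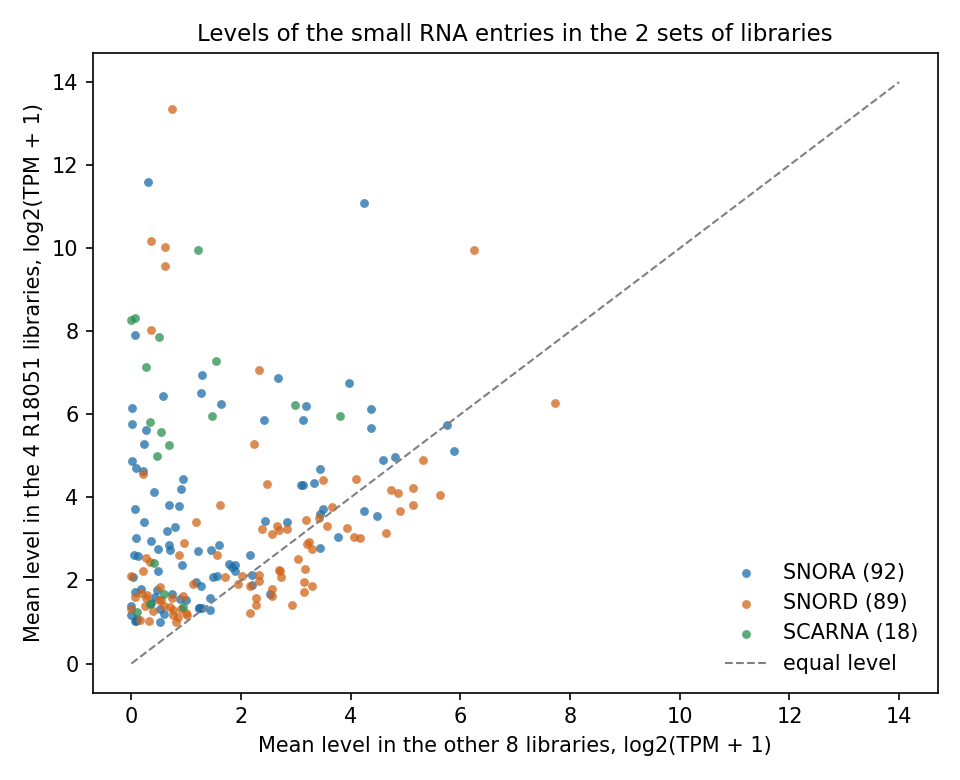
Mean level of each of the 199 entries in the 4 R18051 libraries (vertical axis) and in the other 8 libraries (horizontal axis), both as log2(TPM + 1), coloured by class. SCARNA entries lie above the line of equal level, by a median of 4.55, while 34 of the 89 SNORD entries lie below it.

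The same entries were far lower in the other 8 libraries. Their sum there lay between 1162 and 1435 TPM, or 0.116% to 0.143% of all TPM, below each R18051 library. SNORD entries summed to 736 to 925 TPM, SNORA entries to 360 to 522 TPM and SCARNA entries to 25.7 to 36.8 TPM. The 6 U3 entries summed to 1.28 to 3.27 TPM. SCARNA2 was listed at 0 in all 8 libraries, as were 4 other entries. The untreated T24 controls of the 2 sets differed in the same way as the sets as a whole, with sums of 21482 and 27254 TPM in T1 and T2 and of 1435 and 1412 TPM in T24P3 and T24-4.

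The classes differed in how much lower they were. On the log2(TPM + 1) scale the R18051 mean minus the mean of the other 8 libraries had a median of 4.55 for SCARNA, 1.27 for SNORA and 0.41 for SNORD. Over all 14059 genes chosen by the same threshold of 1 TPM in the R18051 libraries, the median was -0.79. All 4 R18051 libraries lay above all other 8 for 16 of 18 SCARNA, 58 of 92 SNORA and 25 of 89 SNORD entries, beside 4.14% of those 14059 genes. The reverse held for 14 SNORD entries, 1 SNORA entry and no SCARNA entry, beside 64.1% of those genes. Because high R18051 levels chose the entries, the same was looked at from the other side, over the genes of each class whose mean in the other 8 libraries reached 1 TPM. The median difference was then 3.87 for 6 SCARNA, 0.53 for 51 SNORA and -0.54 for 65 SNORD genes, so the order of the classes did not depend on the side of the choice.

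The difference was in general larger for longer RNAs, across the entries and within SNORD and SCARNA. Over the 68 entries of up to 100 bases, all of them SNORD, its median was 0.17. For entries of over 120 to 150 bases it was 1.20 for 79 SNORA, 2.22 for 8 SNORD and 1.13 for 7 SCARNA entries. For those of over 150 to 300 bases it was 2.79 for 12 SNORA, 2.90 for 4 SNORD and 5.03 for 7 SCARNA entries. Above 300 bases it was 9.61 for 4 SNORD, 6.87 for 4 SCARNA and 2.03 for 1 SNORA entry. These 4 SNORD entries were the U3 copies SNORD3A, SNORD3B-1, SNORD3B-2 and SNORD3C. Spearman's rho between length and the difference was 0.63 over the 199 entries. It is a description, since the entries share the 12 libraries and many share a host. The length of an entry also enters its TPM, and the replication-dependent histones, most of which are made without a poly(A) tail, moved the same way as the long entries (27662 to 34279 TPM in the R18051 set and 103 to 180 TPM in the other 8 libraries). The 10 highest genes of a library took 45.5% to 49.6% of its TPM in the R18051 set and 7.06% to 7.56% in the other. The part of library preparation in these level differences was not tested.

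**Figure D2:**
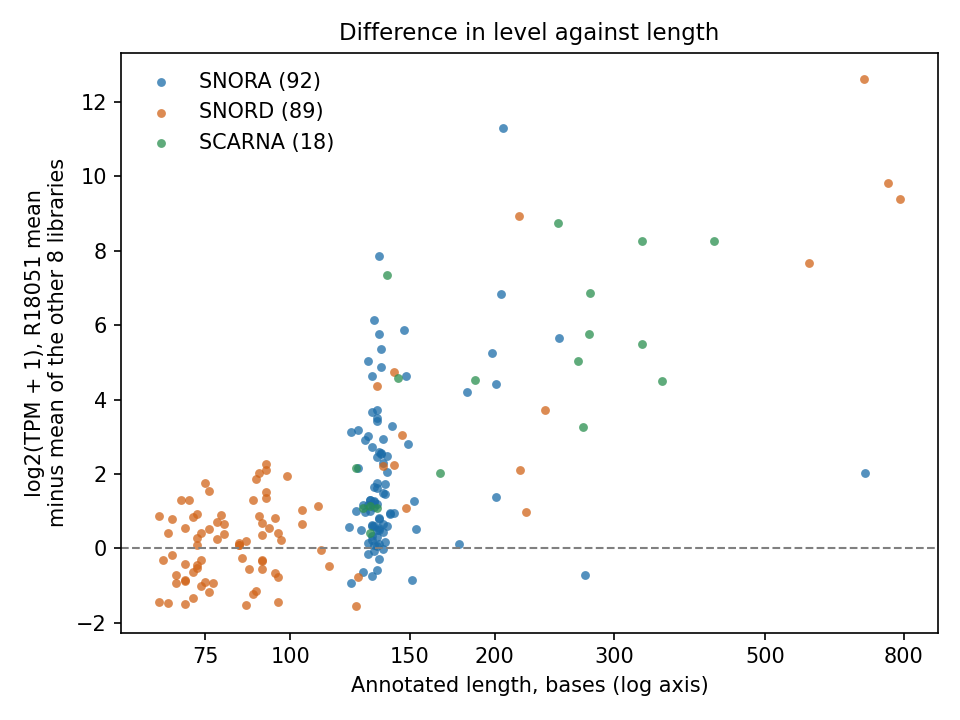
Difference between the 2 sets of libraries (R18051 mean minus mean of the other 8, log2(TPM + 1)) against the annotated length of each entry in bases (log axis), coloured by class. Entries of up to 100 bases scatter around 0, and those above 300 bases lie at 2.03 or higher.

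Single entries show the extremes. SNORD58B, of 66 bases, was lower in the R18051 set, at 76.1, 76.0, 77.2 and 75.1 TPM in T1, T2, U1 and U2, than in the other 8 libraries, where it ranged from 166 to 262 TPM with a median of 201 TPM. It was the highest entry of those 8 libraries. SNORD17, of 237 bases, was at 956, 959, 1008 and 1067 TPM in the R18051 set and at 56.0 to 94.8 TPM in the other. The near-identical U17 copies parted in the other 8 libraries, where SNORA73A was at 0.187 to 0.270 TPM and SNORA73B at 14.6 to 21.9 TPM, although neither was below 2022 TPM in any R18051 library. SNORA73A lies in an annotated exon of SNHG3 and SNORA73B in an intron. SNORA67, in an exon of EIF4A1, was the one among the 5 highest entries of the other set at nearly the same level in both, with means of 52.5 and 53.0 TPM.

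Host genes did not share this pattern. Of the 199 entries, 187 lay inside a longer gene on the same strand, in 123 different hosts. The median difference of these hosts, each counted once, was -1.01, and 117 of the 123 were lower in the R18051 set than in the other. Of the 14059 genes at 1 TPM or more in the R18051 set, 12498 were lower there, with a median of -0.79. In 177 of the 187 pairs the small RNA had the larger difference, with 86 of 86 SNORA, 74 of 84 SNORD and 17 of 17 SCARNA pairs. Entries, but not hosts, were chosen by their R18051 level, which enters the difference, so these counts are a description.

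Some entries that coincide with an exon of their host or of another annotated gene gave uneven values. By GENCODE, 90 entries lay at least 50% within such an exon, 100 in an intron and 9 in neither. Within the 4 R18051 libraries, 12 of the 90 exonic entries had a highest value above 5 TPM and more than 10 times the lowest one, against 0 of 100 intronic entries and 0.505% of the 14059 genes at 1 TPM or more. In the other 8 libraries the counts were 15 of 90, 1 of 100 and 0.868%. Fewer intronic entries could reach 5 TPM, since their levels were lower. The median level in the R18051 set was 10.05 TPM for exonic and 4.02 TPM for intronic entries. In the other 8 libraries it was 3.71 and 0.917 TPM. The part of level in these counts was not tested. SCARNA12, in an exon of PHB2, was at 272 TPM in T1 and at 8.69, 7.82 and 8.08 TPM in T2, U1 and U2. One of the 2 SNORA21 entries in RPL23 (ENSG00000252699) was at 0.0617 TPM in T1 and at 32.1, 39.7 and 41.6 TPM in the others. SNORD65 was at 0.0716 TPM in T2 and at 13.3, 13.9 and 14.4 TPM in T1, U1 and U2. One library alone set the group difference of each of these 3, and none passed the test below. How Stringtie divides reads between an entry and an overlapping exon was not tested.

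The knockout comparison set U1 and U2 against T1 and T2. Genes at 1 TPM or more in at least 2 of the 4 libraries were tested with limma on log2(TPM + 1), and called at an unadjusted P under 0.05 with a fold change of at least 1.5. Of the 199 entries 195 were tested. The 4 that were not (SNORA6, SNORA70G, SNORD5 and SNORD12) had means of 1.03 to 3.76 TPM. Of the 195, 14 rose and 5 fell, or 9.74%, beside 11.8% of the 14356 genes tested. Rises made up 8.61% of all genes and 7.18% of the entries, and falls 3.15% of all genes. The share of entries called was thus near or below the background. After Benjamini-Hochberg adjustment over all genes 3 rises (SNORD116-4, SNORA38 and SNORD3C) and 1 fall (SNORA74, ENSG00000223111) remained, or 4 of 195 entries beside 6.85% of all genes. SNORD116-4 and an SNORA2 entry (ENSG00000206647) were below 1 TPM in both controls and so were tested only because U1 and U2 were high. Without these 2, 12 entries rose and 5 fell, and 2 rises and 1 fall remained after adjustment. That fall, SNORA74, met the filter through the controls, since only 1 of U1 and U2 reached 1 TPM. Under median ratio scaling, which took the median over all genes from 0.11 to -0.02 (log2), 8 of 195 entries rose and 8 fell. Of the 14356 genes 773 rose and 775 fell under this scaling. Without T2, 25 entries rose, or 13.1% beside 14.7% of all genes tested. Falls numbered 12 without T1 (6.25% beside 3.72%) and 10 without U1 (5.32% beside 4.26%). The groups did not overlap for 80 of the 195 entries (41.0%), beside 60.2% of all genes. With 2 libraries in each group, and nothing in the labels on separate cultures, these P values measure only the spread between these libraries.

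**Figure D3:**
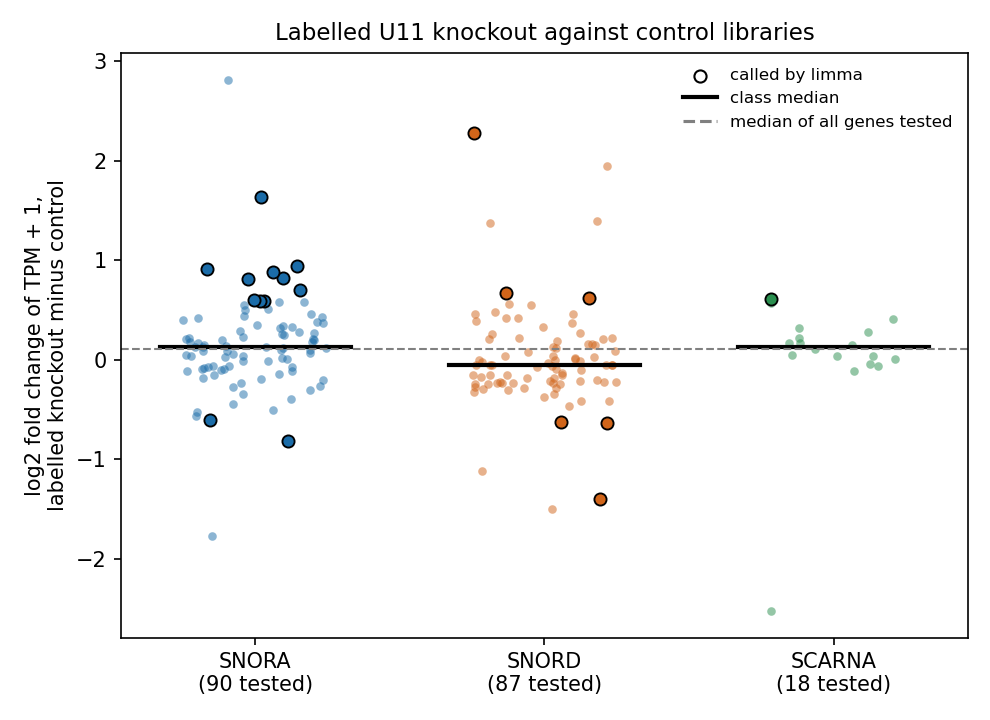
Log2 fold change of TPM + 1, libraries labelled U11 knockout minus controls, for the 195 tested entries by class. Outlined points were called by limma, black bars are class medians (0.13, -0.05 and 0.13) and the dashed line is the median of all genes tested, 0.11.

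By class, 10 of 90 SNORA entries rose and 2 fell, 3 of 87 SNORD entries rose and 3 fell, and 1 of 18 SCARNA entries rose. The shares called were 13.3% for SNORA, 6.90% for SNORD and 5.56% for SCARNA, beside 11.8% of all genes tested. Rises made up 11.1%, 3.45% and 5.56% in the same order, beside 8.61% of all genes. The median log2 fold change was 0.13 for SNORA, -0.05 for SNORD and 0.13 for SCARNA, beside 0.11 for all genes tested. Relative to all genes the medians were 0.02, -0.16 and 0.02. Under median ratio scaling they were -0.01, -0.17 and -0.02, so the sign of the SNORA and SCARNA medians depended on the scaling. The SNORD median was 0.06 without T2, 0.08 without U2 and -0.17 without T1, so its sign depended on single libraries. The median of all genes tested was 0.16, 0.16 and 0.06 in the same fits, above the SNORD median in each. Replicates were less alike for the entries than for genes in general. The median absolute difference between T1 and T2 was 0.23 for the 195 entries and 0.14 for all genes on the log2(TPM + 1) scale, and between U1 and U2 it was 0.24 and 0.15.

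Among H/ACA entries at 10 TPM or more in a group, SNORA80B, SNORA38, SNORA49 and SNORA2C rose. SNORA80B, in the gene of ornithine decarboxylase, was at 4.65 and 5.68 TPM in T1 and T2 and at 9.14 and 12.8 TPM in U1 and U2. SNORA38, in PRRC2A, was at 7.78 and 9.28 TPM in T1 and T2 and at 14.6 and 17.2 TPM in U1 and U2. For both, the groups were fully apart. Their log2 fold changes were 0.94 ± 0.20 and 0.83 ± 0.15 (SE), with adjusted P of 0.0568 and 0.0437 by limma. SNORA49, in EP400, was at 33.9 and 43.0 TPM in T1 and T2 and at 54.0 and 62.5 TPM in U1 and U2. SNORA2C, in KANSL2, was at 9.36 and 10.9 TPM and at 14.9 and 16.6 TPM in the same order. The groups were apart for both, but the changes of 0.59 ± 0.15 and 0.59 ± 0.13 lay just past the fold threshold and their adjusted P were 0.0843 and 0.0640. Both calls were lost under FPKM, median ratio scaling and quantile normalization, and without T1 or U2.

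SNORA74A, in an intron of MATR3, was the H/ACA entry of this level that fell. It was at 105 and 113 TPM in T1 and T2 and at 61.6 and 81.7 TPM in U1 and U2, without overlap, a log2 change of -0.61 ± 0.16 with adjusted P of 0.0832. The call was lost without T2 or U1, where the change was -0.55 and -0.41. A lower copy, SNORA74 in TIMM23B, was at 2.49 and 2.13 TPM in T1 and T2 and at 0.762 and 1.01 TPM in U1 and U2.

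SNORA57, which lies in METTL12 and coincides with an annotated exon, stood beside SNORA74A in level. It was at 123 and 134 TPM in T1 and T2 and 91.3 and 82.5 TPM in U1 and U2. Its log2 difference of -0.56 ± 0.10 had an adjusted P of 0.0427 but lay under the fold threshold. It was outside the rule for named genes and was chosen after its values were seen.

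Among C/D entries of this level 1 rose and 3 fell. SNORD3C was at 180 and 226 TPM in T1 and T2 and at 313 and 329 TPM in U1 and U2, without overlap, a log2 fold change of 0.67 ± 0.13 with adjusted P of 0.0476. The call was lost without T1 and under FPKM and median ratio scaling. SNORD3B-1, another U3 copy, lay the other way, at 1312 and 1322 TPM and at 962 and 1014 TPM (-0.41 ± 0.07, adjusted P of 0.0348, under the fold threshold). How reads were divided between these copies was not tested, and their sum overlapped between the groups as given above.

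The 3 that fell were SNORD36A, SNORD22 and SNORD104. SNORD36A, in an exon of RPL7A, was at 27.1 and 32.1 TPM in T1 and T2 and at 6.95 and 16.0 TPM in U1 and U2. Its log2 change was -1.39 ± 0.37 with adjusted P of 0.0900. SNORD22 (ENSG00000278527), in an exon of SNHG1, was at 17.4 and 21.4 TPM and at 13.9 and 10.4 TPM (-0.63 ± 0.18, adjusted P of 0.103). SNORD104, in SNHG25, was at 33.8 and 36.5 TPM and at 25.3 and 19.96 TPM (-0.62 ± 0.14, adjusted P of 0.0705). The groups were apart for each. The calls of SNORD22 and SNORD104 were lost without T2 or U2.

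SNORD36A was among the entries with uneven values, since in the other 8 libraries it stood at 13.4 to 35.4 TPM in 3 and below 0.1 TPM in 5. The same held for SNORD116-4, which belongs to the imprinted SNORD116 cluster in SNHG14 and had the largest called rise. It was at 0.0888 and 0.0749 TPM in T1 and T2, at 5.98 and 2.96 TPM in U1 and U2, and in the other 8 libraries at 9.14 to 12.8 TPM in 6 and at 0.217 and 0.152 TPM in 2. Its log2 fold change was 2.28 ± 0.29 with adjusted P of 0.0234, but it met the choice of entries and the filter only through U1 and U2, where it was high, so this is a description. It was named after its values were seen, as were the not yet described calls of the same comparison. These were rises of SNORA37, SNORA7A, SNORA29, SNORA80A, 2 entries of SNORA2, SNORD64 and SCARNA4, whose group means stayed below 10 TPM.

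**Figure D4:**
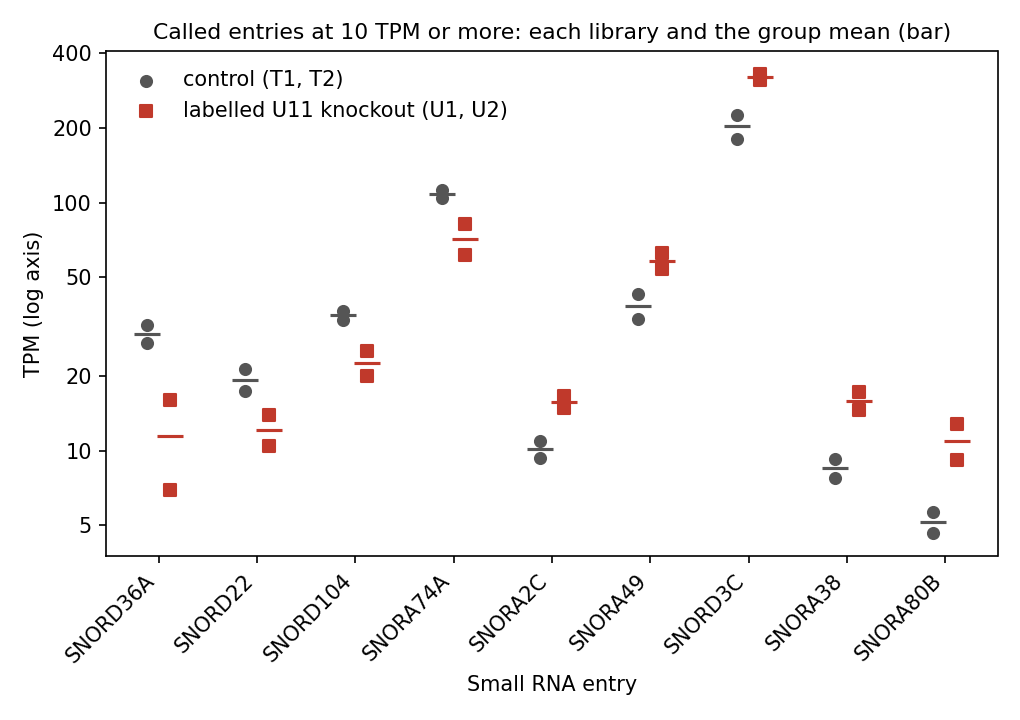
TPM (log axis) of the 9 called entries whose mean reached 10 TPM in a group without overlap, in the controls T1 and T2 (circles) and in U1 and U2, the libraries labelled U11 knockout (squares). Bars are group means, and for each entry the 2 squares lie on one side of both circles.

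No SCARNA entry at 10 TPM or more was called. SCARNA7, in KPNA4, came closest, at 245 and 268 TPM in T1 and T2 and at 393 and 368 TPM in U1 and U2. Its difference of 0.57 ± 0.09 had an adjusted P of 0.0321 and lay just under the fold threshold. SCARNA4 rose by 0.61 ± 0.21 from a control mean of 1.51 TPM, with adjusted P of 0.142. SCARNA21, SCARNA2 and the SCARNA10 entry of 248 bases differed by 0.15, 0.11 and 0.17, with the libraries of the 2 groups apart and none past the test.

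Entries were next set beside their host genes. Over the 183 pairs with both tested, in 121 hosts, the log2 fold changes had a Pearson's r of 0.25 and a Spearman's rho of 0.36. For the 97 intronic entries r was 0.47 and rho 0.44, and for the 86 exonic entries r was 0.17 and rho 0.30. By class rho was 0.49 for 84 SNORA, 0.18 for 82 SNORD and -0.07 for 17 SCARNA pairs. These are descriptions, as pairs share libraries, several entries share a host, and the reads of an exonic entry can count for both. Only 3 of the 183 pairs had a host that was itself called, beside 11.8% of all genes tested.

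Some pairs moved closely together. SCARNA7 and KPNA4 differed between the groups by 0.57 and 0.55, and SNORA57 and METTL12 by -0.56 and -0.67. SNORA57 coincides with an exon and was at 82.5 to 134 TPM in the R18051 libraries, beside 4.30 to 8.10 TPM for METTL12. Its reads can count for both, so these 2 values are not independent. SNORD104 and its host SNHG25 were at -0.62 and -0.87, and SNORD22 and SNHG1 at -0.63 and -0.50, though neither of these hosts passed the test (adjusted P of 0.208 and 0.176). All 3 entries in RPS12 (SNORA33, SNORD100 and SNORD101) had a log2 difference of 0.46 to 0.58, beside 0.37 ± 0.06 for RPS12 itself with adjusted P of 0.0378. All 5 entries in SNHG1 were lower, by -0.63 to -0.05. In contrast, the 8 entries in SNHG14 ranged from -0.30 to 2.28 beside 0.34 for the host.

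Entries in ribosomal protein genes lay above their host in most pairs. The median log2 fold change was -0.29 for the hosts of 35 such entries and 0.01 for the entries, and 29 of the 35 entries were above their host. For 31 entries in SNHG genes the medians were 0.00 for hosts and -0.05 for entries, with 16 above their host.

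The entries furthest from their host at 10 TPM or more were mostly those with uneven values. Furthest above lay SNORA21 (ENSG00000252699), SNORD65 and SNORD3D (ENSG00000281000), by 2.93, 1.68 and 1.65, each with 1 low library among the 4. SNORD3D was at 351 TPM in T1 and at 955, 762 and 949 TPM in T2, U1 and U2. The longer entry around it, RP11-160E2.6, was uneven in the same library, at 11.8 TPM in T1 and at 1.17, 1.32 and 1.62 TPM in T2, U1 and U2. The log2 differences of this pair were 0.55 and -1.10, and U3 genes have their own transcription units. SNORA54 followed with a difference of 0.98. It was at 11.7 and 10.4 TPM in T1 and T2 and at 13.9 and 16.7 TPM in U1 and U2, while its host NAP1L4 had a mean of 134 TPM over T1 and T2 and of 91.3 TPM over U1 and U2. Furthest below lay SCARNA12, SNORA18 and SNORD36A, by -2.66, -1.49 and -0.81. SCARNA6 lay below by -0.48, with 50.4 and 46.8 TPM in T1 and T2 and 42.4 and 47.6 TPM in U1 and U2, beside ATG16L1 at means of 11.2 and 14.9 TPM.

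**Figure D5:**
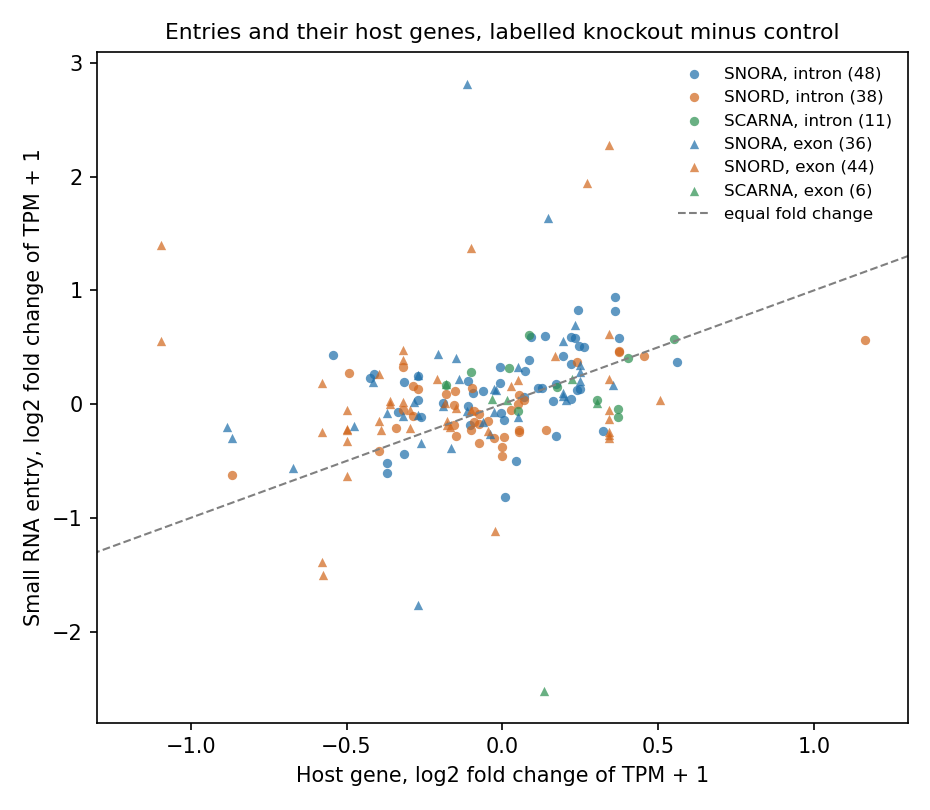
Log2 fold change of TPM + 1 (libraries labelled U11 knockout minus controls) of each small RNA entry against that of its host gene, for 183 pairs. Circles are entries in introns, triangles entries in annotated exons, and colours are classes. The points furthest from the line of equal change are triangles, and Spearman's rho was 0.44 for circles and 0.30 for triangles.

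Of 31 genes for proteins that build or process these particles, 21 had a log2 fold change below 0 in the knockout comparison, with a median of -0.09 beside 0.11 for all genes. Just 1 was called, a fall, beside 11.8% of all genes called, with 8.61% up and 3.15% down. NOLC1, the nucleolar and Cajal body chaperone Nopp140, was at 82.7 and 63.9 TPM in T1 and T2 and at 38.0 and 40.2 TPM in U1 and U2, a log2 change of -0.88 ± 0.15 with adjusted P of 0.0386. NHP2, one of the core proteins of H/ACA particles, was at 156 and 148 TPM in T1 and T2 and at 105 and 110 TPM in U1 and U2. Its difference of -0.49 ± 0.08 had an adjusted P of 0.0393 and lay under the fold threshold.

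Of the other core proteins, the H/ACA synthase DKC1 differed by -0.28 and the H/ACA proteins GAR1 and NOP10 by -0.19 and 0.14. NOP10 was higher, at 182 and 163 TPM in T1 and T2 and at 189 and 190 TPM in U1 and U2. The C/D proteins NOP56, FBL, NOP58 and SNU13 differed by -0.37 to 0.10. None of these core proteins was called. For NOP56 (-0.37) and DKC1 the groups were apart, with an unadjusted P of 0.0084 and 0.021 by limma. Their adjusted P were 0.0710 and 0.107, and both lay under the fold threshold. The exonuclease PARN, which trims the 3′ ends of H/ACA RNAs, was at 29.7 and 28.5 TPM in T1 and T2 and at 20.3 and 21.9 TPM in U1 and U2 (-0.45 ± 0.10, adjusted P of 0.0674). COIL, the Cajal body scaffold coilin, was at 13.8 and 14.5 TPM in T1 and T2 and at 15.5 and 14.97 TPM in U1 and U2. Without a fold change threshold 8 of the 31 fell (25.8%), beside 9.53% of all genes tested.

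The overexpression comparison set the 6 libraries labelled U11 overexpression against T24P3 and T24-4. At these lower levels 128 of the 199 entries were tested, with 57 SNORA, 64 SNORD and 7 SCARNA. Here 3 rose (SCARNA8, SNORD14E and SNORD36B) and 4 fell (SNORA78, SNORD99, SNORA22 and SNORD72), or 5.47% beside 1.93% of the 15768 genes tested, of which 0.767% rose and 1.16% fell. None of the 7 remained after Benjamini-Hochberg adjustment, where the lowest adjusted P was 0.260, beside 0.165% of all genes, and 8 entries had an unadjusted P under 0.05 (8 of 128), beside 946 of the 15768 genes tested. SCARNA8 was tested only because overexpression libraries were high, and SNORA22 only because the controls were, and without them 2 rose and 3 fell. The groups did not overlap for 11 of the 128 entries (8.59%), beside 9.87% of all genes. The class medians were -0.16 for SNORA, -0.12 for SNORD and -0.08 for SCARNA, beside -0.02 for all genes. Without 79-3, 1 of 125 entries rose, beside 117 of 15626 genes. Without 87-3, 2 of 124 entries fell, beside 187 of 15651 genes. Leaving out a control left only 1, and the SNORD median was then 0.07 without T24P3 and -0.15 without T24-4.

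SCARNA8, in HAUS6, was at 0 and 0.432 TPM in T24P3 and T24-4 and at 0.782, 1.19 and 1.40 TPM as the lowest, median and highest of the 6. SNORD14E, in HSPA8, was at 6.37 and 8.37 TPM in T24P3 and T24-4 and at 9.82, 11.6 and 15.2 TPM in the 6. For both, the groups were fully apart, and the log2 fold changes were 0.84 ± 0.18 and 0.63 ± 0.19 with adjusted P of 0.260 and 0.543. Within the library ID prefixes R17018 and R18019 they were 1.20 and 0.49 for SCARNA8 and 0.86 and 0.40 for SNORD14E. SCARNA8 met the filter only through the overexpression libraries, so its values are a description. In the knockout comparison SNORD14E was at 9.19 and 11.4 TPM in T1 and T2 and at 8.30 and 6.68 TPM in U1 and U2, without a call.

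SNORA78, in an exon of SNHG9, was at 4.46 and 3.87 TPM in T24P3 and T24-4 and at 1.38, 1.75 and 2.94 TPM as the lowest, median and highest of the 6. SNORD99, in SNHG12, was at 22.4 and 22.8 TPM and at 8.74, 13.6 and 18.6 TPM. SNORA22 (ENSG00000206634), in CCT6P1, was at 2.10 and 1.15 TPM and at 0.234, 0.833 and 0.952 TPM. All 6 libraries were below both controls for each of the 3. For SNORA22 this followed from the filter, which it met only through the controls, so its values are a description. The log2 changes were -0.79 ± 0.22, -0.75 ± 0.22 and -0.65 ± 0.25, with adjusted P of 0.479, 0.536 and 0.733. Within R17018 and R18019 they were -0.69 and -0.90, -0.93 and -0.57, and -0.95 and -0.36. SNORD72 and SNORD36B overlapped between the groups. The labels do not say whether the 2 libraries of a line are separate cultures.

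None of the 31 particle protein genes was called in the overexpression comparison, where the background was 1.93% and their differences ran from -0.30 to 0.28. None of the 5 highest entries of these 8 libraries was called. SNORD58B was at 207 and 196 TPM in T24P3 and T24-4 and at 166, 211 and 262 TPM as the lowest, median and highest of the 6. SNORD17 was at 77.3 and 65.9 TPM and at 56.0, 76.9 and 94.8 TPM. SNORD22 and SNORA67 likewise overlapped between the groups, and SNORA18 had 1 library near 0.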

How the data were processed

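RNA-seq tables of 12 T24 libraries were analysed. The authors aligned reads to hg38 with Hisat2 and ran Stringtie, and deposited per gene a coverage signal (aligned bases per position), the FPKM and the TPM. No counts were in the files, so limma 3.58.1 in R 4.3.3 (lmFit, eBayes with trend) was run on log2(TPM + 1) over genes that reached 1 TPM in at least 2 of the libraries compared, and tested on simulated data. Fold changes on this scale understate the change of low genes. TPM comes without counts, so counting error was not modelled and only the spread between libraries gives the precision. The median coverage of the entries was 54.4 to 66.0 in the R18051 libraries and 4.34 to 8.07 in the others. A host was the non-small-RNA gene of over 500 bases on the same strand that contained the entry, and the highest of several. Pearson's r and Spearman's rho are descriptions. Groups came from the treatment label and library ID prefixes from the titles.

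The genes and lists were chosen with earlier results of these data known. Named were the 4 highest entries of each class, the 5 highest of the other 8 libraries, in each comparison up to 6 rises and 6 falls called without overlap (mean of at least 10 TPM in the knockout and 1 TPM in the overexpression comparison), the 4 furthest from their host in each direction, independently transcribed entries, and the particle protein list. Exact permutation of 2 against 2 cannot go below 0.333. Alternatives were a pseudocount of 0.1, FPKM, median ratio and quantile scaling, other filters, no trend, adjusted P, no fold threshold, blocks, line means, all 4 controls and each library left out. Python 3.11.15, pandas 2.3.3 and biopython 1.88 were used. One further sequence is not reported here.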

Additional observations from a re-analysis of the deposited data

Results flagged for a closer look

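Among 25 named entries with at least 1 TPM in an overexpression library, 2 had 1 library apart from the other 5 by Dixon's test. Chance gives about 1 in 20. SNORA18 was at 0.00232 TPM in library 87-3, while the next lowest of the 6 was at 52.3 TPM. SCARNA6 was at 1.62 TPM in the same library, while the next highest was at 0.542 TPM.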

How the results depend on the processing

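Of the knockout rises (14) and falls (5), 3 and 1 remained at adjusted P, 25 and 12 without a fold threshold, 8 and 8 under median ratio scaling and 7 and 8 under quantile normalization. These are counts of 195 entries tested. Over the 14356 genes tested the same settings gave 686 and 298, 2951 and 1368, 773 and 775, and 751 and 681. Rises were 6 of 195 entries under FPKM, beside 725 of 14356 genes. With 1 TPM required in every library they were 9 of 161 entries, beside 1040 of 12983 genes. Falls were 2 of 197 entries against all 4 controls, beside 638 of 15433 genes. They were 3 outside annotated exons, an alternative chosen after seeing the data. With each library left out in turn rises ranged from 10 to 25 and falls from 4 to 12, and without T2 25 entries rose. Of the overexpression rises (3) and falls (4), 0 and 0 remained at adjusted P, beside 8 and 18 of 15768 genes. Under FPKM they were 0 and 2, beside 64 and 109 of these genes. With each overexpression library left out rises ranged from 1 to 3 and falls from 2 to 4. Without the control T24-4 both counts lay above these ranges, in a fit with only 1 control. Particle protein falls were 8 without a fold threshold, 2 under FPKM and 3 under median ratio scaling, beside 1. Under median ratio scaling the SNORA and SCARNA medians were -0.0082 and -0.0205. With each library left out they ranged from 0.0299 to 0.205 and from 0.10 to 0.21, and the SNORD median from -0.172 to 0.0829. SNORA74A reversed to 2.29 against all 4 controls, which sets libraries of different ID prefixes together. The correlation with hosts was 0.25 by TPM and moved by less than its spread with coverage. The causes were not tested.

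Same-numbered libraries of the knockout comparison did not deviate together (correlation 0.02). With the replicate number as a block 15 entries rose and 5 fell. With the library ID prefix as a block the overexpression counts were 3 and 4. With 2 libraries a group, small differences were not detectable, and the fits on TPM took no account of the depth of single entries.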
